A study of Mus musculus with 6 samples.

Results

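The 10 genes described here encode the 8 mouse Smad proteins (*Smad1*, *Smad2*, *Smad3*, *Smad4*, *Smad5*, *Smad6*, *Smad7* and *Smad9*) and the ubiquitin ligases *Smurf1* and *Smurf2*. They were picked by gene name, with no threshold on a measured value, from the 55809 genes in the counts, and all 10 were among the 15733 genes with enough counts to be tested. RNA was sequenced from HC11 cells, a line of mouse mammary epithelial cells, after culture in a medium with BMP7 protein (BMP7, 3 libraries) or without it (Ctrl, 3 libraries). Both groups were the same line with no genetic change named in the labels. The study's methods describe starving HC11 cells before BMP7 was added. They give alternative stimulation times, and which was used for sequencing is not given in the sources used here. The comparison addresses which genes BMP7 signaling changes in these cells.

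BMP7 is a secreted ligand of the TGF-beta superfamily whose receptors phosphorylate the BMP receptor-activated Smads, Smad1, Smad5 and Smad9. Smad2 and Smad3 are the counterparts used by TGF-beta and activin receptors, and both kinds enter the nucleus bound to the common Smad, Smad4. The inhibitory Smads, Smad6 and Smad7, block receptors and receptor-activated Smads, and Smurf1 and Smurf2 attach ubiquitin to Smads and receptors, often recruited by an inhibitory Smad.

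Smad complexes bind short DNA letters, the Smad box GTCT (AGAC on the other strand) and a GC-rich element, GGCGCC, and the windows around the RefSeq starts of the rising genes *Smad6*, *Smad9* and *Smad1* are shown for these letters. RefSeq starts were matched for 7 of the 10 genes, in 9 windows, and each window runs from 250 bases before to 50 bases after a start in the GRCm38.p6 build. No start was matched for *Smad7*, which also rose, nor for *Smad2* and *Smad4*, so these genes were not searched. Capitals mark GTCT or AGAC and GGCGCC.
Smad6, chr9:64022010-64022309, minus strand: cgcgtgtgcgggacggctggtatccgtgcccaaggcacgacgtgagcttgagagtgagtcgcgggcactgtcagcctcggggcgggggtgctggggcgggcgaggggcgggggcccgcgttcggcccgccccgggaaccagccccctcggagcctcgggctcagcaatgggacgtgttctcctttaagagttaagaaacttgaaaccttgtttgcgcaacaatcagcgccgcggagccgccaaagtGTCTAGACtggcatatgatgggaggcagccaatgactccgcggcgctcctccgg
Smad9, chr3:54755332-54755631, plus strand: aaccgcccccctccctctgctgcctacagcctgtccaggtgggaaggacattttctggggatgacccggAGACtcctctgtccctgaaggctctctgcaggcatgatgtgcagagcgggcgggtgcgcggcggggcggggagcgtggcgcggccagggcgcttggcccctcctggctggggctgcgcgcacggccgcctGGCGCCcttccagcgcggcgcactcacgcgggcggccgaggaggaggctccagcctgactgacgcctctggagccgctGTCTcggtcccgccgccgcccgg
Smad1, chr8:79399379-79399678, minus strand: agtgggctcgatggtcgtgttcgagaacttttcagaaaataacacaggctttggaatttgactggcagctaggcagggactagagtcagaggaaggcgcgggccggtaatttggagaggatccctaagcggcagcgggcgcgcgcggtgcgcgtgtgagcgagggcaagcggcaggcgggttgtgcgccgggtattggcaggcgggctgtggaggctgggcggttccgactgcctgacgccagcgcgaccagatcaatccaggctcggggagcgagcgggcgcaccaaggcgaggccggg
The *Smad6* window held a GTCT and an AGAC side by side, from position -4 to position 4 counted from the start, which together make GTCTAGAC. This 8-letter palindrome, which contains both shorter motifs, was present in 70 of 32851 RefSeq promoter windows (0.213%) and in no other window of the 7 genes. The *Smad9* window held GGCGCC at position -51 and Smad boxes at positions -181 and 28, and the *Smad1* window held none of these letters. On either strand, GTCT was found in 88% of all windows and in 8 of the 9 windows here, from 6 of the 7 genes. GGCGCC was in 11.9% of all windows and in 4 of the 9, from *Smad9*, *Smad5* and *Smurf2*. Of these, *Smad5* and *Smurf2* were not called. GGCGCC followed after 5 bases by GTCT, the spaced BMP element, was in 0.073% of all windows and in 0 of the 9. Such matches describe the letters only and do not show that a Smad complex was bound.

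Libraries held 19858701 to 20327200 fragments assigned to genes in Ctrl and 14607938 to 23748970 in BMP7. Replicate numbers here are those of the count columns, 1, 3 and 4 for BMP7 and 1, 2 and 3 for Ctrl. The BMP7 samples are titled 1, 2 and 3, so which titled sample a BMP7 column holds is not known, beyond its group. All 10 epithelial markers examined were measured, with a summed level of 8451 to 8616 CPM (counts scaled to a common library size) in Ctrl and 8857 to 10218 in BMP7, and 2 of them rose and 3 fell. The study treats HC11 as a luminal line, while basal markers were measured in every library beside the luminal *Krt8* and *Krt18*. In Ctrl and BMP7, the basal *Krt14* was at 3394 to 3631 and 4284 to 5258 CPM, and *Krt5* at 2600 to 2685 and 2423 to 2818. The basal *Trp63* was at 230 to 244 and 349 to 396 CPM. *Krt8* was at 57.9 to 66.2 and 64.4 to 68.9 CPM, and *Krt18* at 48.5 to 51.1 and 27.1 to 35.7. *Krt14* and *Trp63* were thus higher and *Krt18* lower in every BMP7 library. The epithelial markers *Epcam* and *Cdh1* were also lower in every BMP7 library. *Epcam* was at 631 to 647 CPM in Ctrl and 460 to 499 in BMP7. *Cdh1* was at 970 to 992 CPM in Ctrl and 787 to 839 in BMP7. Most of the summed epithelial level came from *Krt14* and *Krt5*. Of 10 adipocyte markers, 8 were tested and all 8 rose, with summed levels of 22.4 to 32.2 CPM in Ctrl, 34.9 in BMP7 replicate 1, and 89.9 and 80.4 in BMP7 replicates 3 and 4, while the defining marker *Pparg* was at 3 counts or fewer in every library. The 10 macrophage markers (7 tested, 2 lower) summed to 49.1 to 53.3 CPM in Ctrl, 51.2 in BMP7 replicate 1, and 29.6 and 29.1 in replicates 3 and 4. The 8 fibroblast markers (6 tested, 3 higher, 1 lower) summed to 115 to 126 CPM in Ctrl and 102 to 120 in BMP7. Of 6 endothelial markers, only *Pecam1* was tested, and it rose. Their sum was 13.3 to 15.9 CPM in Ctrl and 24.0 to 26.3 in BMP7, with *Kdr*, *Emcn* and *Cldn5* at 3 counts or fewer throughout. BMP7 replicates 3 and 4 thus stood apart from replicate 1 in the adipocyte and macrophage lists, and the values of the rising Smad genes with replicate 1 alone are given with the results. The part of these markers in the results was not tested further. In bulk RNA, fewer cells of a type and less RNA per cell cannot be told apart. The labels do not say that replicates were separate cultures, so p-values measure only the spread between these libraries.

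With BMP7, both inhibitory Smads and 2 of the 3 BMP receptor-activated Smads (*Smad1* and *Smad9*) rose, by 1.36-fold for *Smad1* to 15.0-fold for *Smad9*. *Smurf2* passed the adjusted p but not the fold, *Smad5*, *Smad2*, *Smad3*, *Smad4* and *Smurf1* passed neither, and *Smad2*, *Smad4* and *Smurf1* overlapped between groups. Calls here needed both a fold over 1.2 and an adjusted p under 0.05 in the quasi-likelihood test of edgeR, adjusted by Benjamini-Hochberg over all tested genes. Of the 10 genes, 4 were called, against 11.4% of all tested genes, and all 4 were higher, against 5.99% called higher and 5.38% called lower. Among the 4 is *Smad9*, which entered the test only through its BMP7 libraries, and a filter of 10 counts per library, which it did not pass, gave 3 calls among 9 tested genes. None of the 10 was called lower by edgeR or by DESeq2, and at an unadjusted p under 0.05 either tool gave 1 lower gene, *Smad3*, where edgeR gave 13.1% of all tested genes. In 7 of the 10 the BMP7 libraries lay wholly on 1 side of the Ctrl libraries, as did 29.8% of all tested genes. The median log2 fold change of the 10 was 0.13, beside -0.0062 over all tested genes. For these 7 genes an exact two-sided permutation test of 3 libraries against 3 gave p = 0.1, the smallest it can. That value follows from the separation itself and adds nothing to it.

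**Figure D1:**
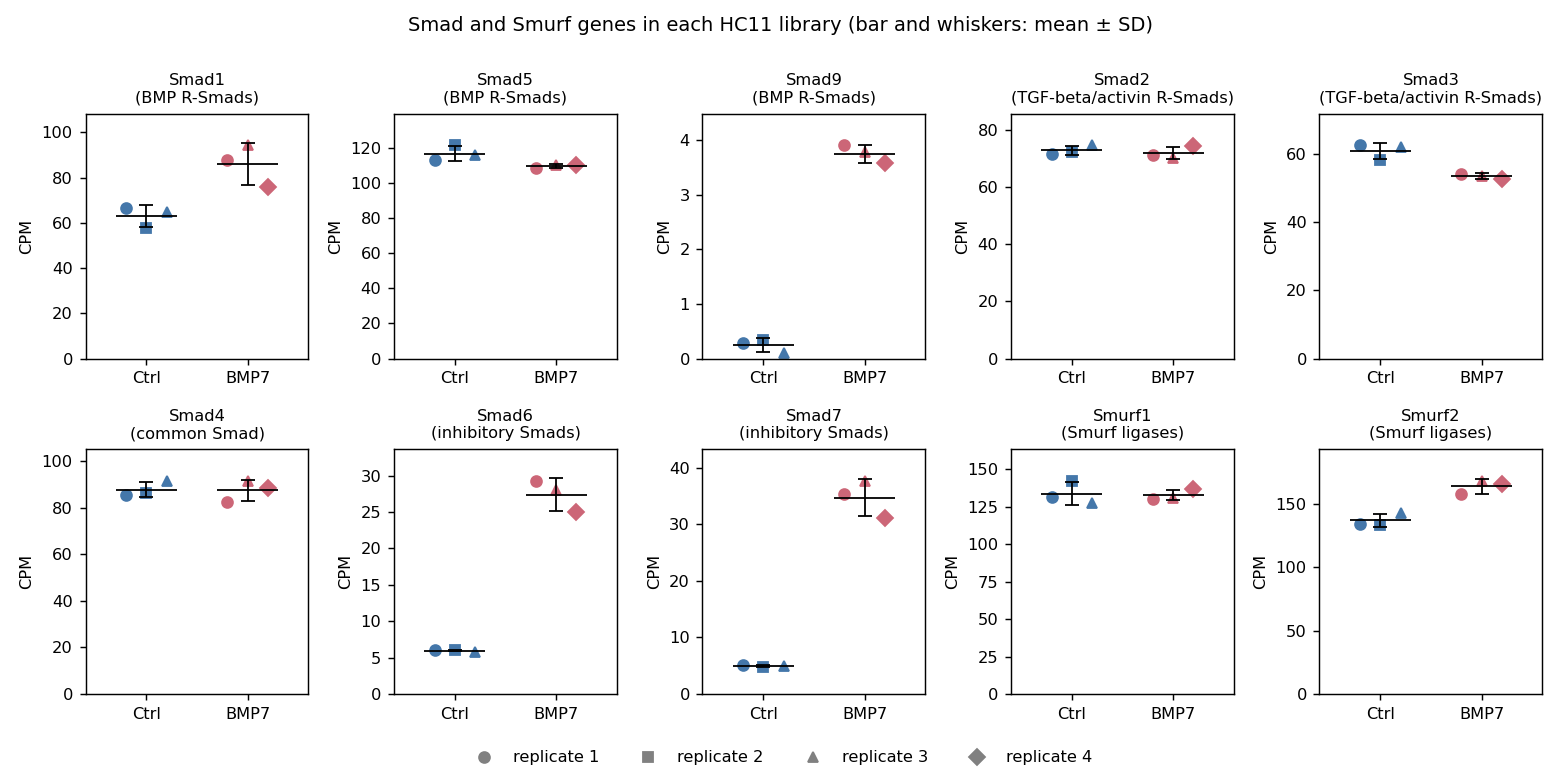
CPM of each gene in each library (points; marker shape gives the replicate number) with the group mean and SD (n = 3), on axes that start at 0. *Smad6*, *Smad7* and *Smad9* stood several-fold above Ctrl in all 3 BMP7 libraries, and *Smad2*, *Smad4* and *Smurf1* overlapped between groups.

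*Smad7*, the broad inhibitor that acts on both BMP and TGF-beta receptors, lies at 75500600 to 75529006 on the plus strand of chromosome 18 in the mm39 annotation of the counts. It was at 5.10, 4.82 and 4.94 CPM in Ctrl replicates 1, 2 and 3 and at 35.3, 37.6 and 31.1 CPM in BMP7 replicates 1, 3 and 4. Every BMP7 library exceeded every Ctrl library. The mean rose from 4.95 ± 0.144 to 34.7 ± 3.30 CPM (SD, n = 3), a fold of 7.0 and a log2 fold change of 2.81 (SE 0.11, 95% interval 2.57 to 3.04, adjusted p = 2.71e-11), which placed it 14th of all tested genes by p.

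*Smad6*, an inhibitor that acts mainly on BMP signaling, lies on the minus strand of chromosome 9 at 63860358 to 63929341. Its levels were 5.97, 6.0 and 5.82 CPM in Ctrl and 29.3, 28.0 and 25.0 CPM in BMP7 replicates 1, 3 and 4. The lowest BMP7 library was again far above the highest Ctrl library. The log2 fold change was 2.21 (SE 0.11, 95% interval 1.98 to 2.43, adjusted p = 4.55e-10), or 4.61-fold. With BMP7 replicate 1 alone against Ctrl, where the lone library is assumed to vary like the Ctrl libraries, the log2 fold changes were 2.30 for *Smad6* and 2.83 for *Smad7*. Without replicate 1 they were 2.16 and 2.80.

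The ratio of *Smad7* to *Smad6*, taken inside each library on levels divided by exon length (CPM per kb), was 0.606, 0.569 and 0.602 in Ctrl and 0.854, 0.955 and 0.884 in BMP7. All 3 BMP7 ratios were higher, so the rise of *Smad7* exceeded that of *Smad6* 1.51-fold. It was 1 of 6 such ratios examined, and its exact two-sided permutation p was 0.1 (0.12 after Benjamini-Hochberg adjustment over the 6), the smallest that 3 against 3 allows.

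The genes whose centred log2 CPM over the 6 libraries lay closest to that of *Smad6*, among 14101 genes at 1 CPM or more, were *Mmp11*, *Slc1a3*, *Ncam1*, *Adamtsl3* and *Fibin*, with root-mean-square distances of 0.0718, 0.0981, 0.109, 0.115 and 0.156. For *Smad7* they were *Id2*, an inhibitor of basic helix-loop-helix factors (0.117), the homeobox genes *Hoxc9* (0.120) and *Dlx1* (0.148), *Adamtsl3* (0.201) and the secreted BMP and Wnt modulator *Sostdc1* (0.219). The likeness rests on 6 libraries in 2 groups.

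Among the BMP receptor-activated Smads the genes differed. *Smad9* (chromosome 3, 54663003 to 54708678, plus strand) was barely detected in Ctrl, with 6, 7 and 2 counts, and had 56, 85 and 65 counts in BMP7 replicates 1, 3 and 4. These are 0.289, 0.344 and 0.0978 CPM in Ctrl and 3.90, 3.78 and 3.58 CPM in BMP7. The groups were far apart, although the level with BMP7 was still low. Its log2 fold change was 3.91 (SE 0.35, 95% interval 3.16 to 4.66). The counts summed over libraries were 15 and 206, a fold of 15.4 after scaling to library size, with an exact 95% interval of 9.10 to 28.0 that covers counting error only. *Smad9* passed the filter on low counts only through the BMP7 libraries, so it had to differ to be tested and its call is given as a description. It was left out when at least 10 counts were required in every library. Stretches of 121 to 133 bases of its transcripts matched 6 other genes at 95% identity or more, and how fragments there were shared out was not tested.

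*Smad1* (chromosome 8, 80065024 to 80126147, minus strand) rose moderately, from 66.7, 57.6 and 64.9 CPM in Ctrl to 87.7, 94.2 and 75.7 CPM in BMP7. All BMP7 libraries were above all Ctrl libraries, with the smallest margin in BMP7 replicate 4. The log2 fold change was 0.45 (SE 0.08, 95% interval 0.27 to 0.62, adjusted p = 0.00128).

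*Smad5* (chromosome 13, 56850823 to 56890190, plus strand) was at 112.8, 121.3 and 116.0 CPM in Ctrl and 108.2, 110.2 and 110.2 CPM in BMP7. All 3 BMP7 libraries were slightly below the Ctrl libraries, but the difference did not pass the test (log2 fold change -0.09, 95% interval -0.21 to 0.03, adjusted p = 0.356). An overlapping gene shares 100 of its 7420 exon bases. With replicate 1 alone the log2 fold changes were 0.48 for *Smad1* and 3.97 for *Smad9*.

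**Figure D2:**
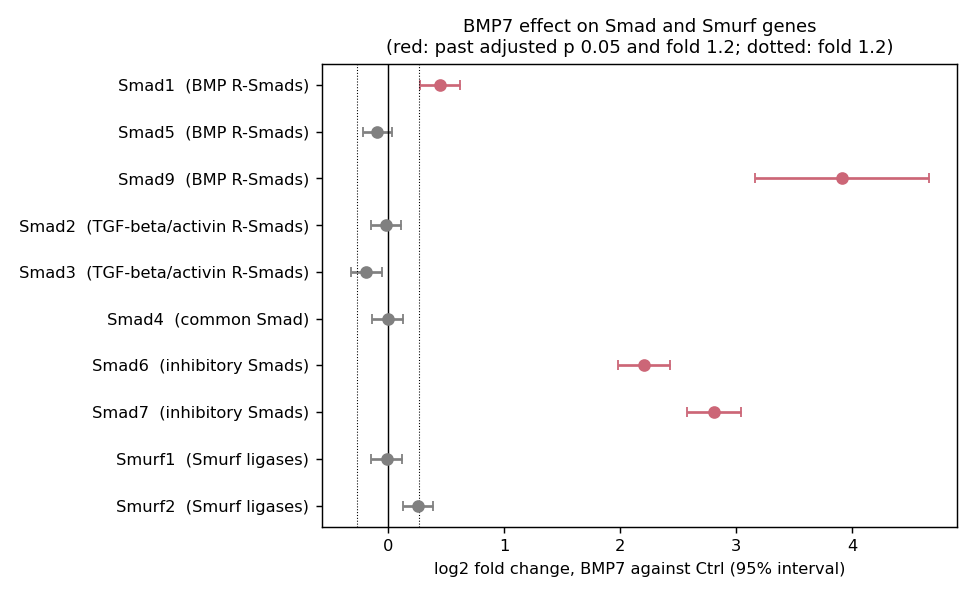
Log2 fold change of BMP7 against Ctrl with its 95% interval for the 10 genes, ordered by class, with dotted lines at a fold of 1.2. *Smad9*, *Smad7*, *Smad6* and *Smad1* (red) passed both thresholds, and the estimate for *Smurf2*, 0.26, sat on the line.

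The Smads of TGF-beta and activin receptors were not called. *Smad3* (chromosome 9, 63554049 to 63665276, minus strand) was at 62.6, 58.2 and 62.1 CPM in Ctrl and 54.3, 53.7 and 52.7 CPM in BMP7. Each BMP7 library was below each Ctrl library, yet the log2 fold change of -0.19 (95% interval -0.32 to -0.05) had an adjusted p of 0.0687, which ran from 0.0159 to 0.319 over the alternatives. *Smad2* (chromosome 18, 76374651 to 76444034, plus strand) was at 71.7, 72.4 and 74.6 CPM in Ctrl and 71.2, 70.3 and 74.4 CPM in BMP7, which overlap. Its log2 fold change was -0.02 (95% interval -0.15 to 0.11, adjusted p = 0.885).

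*Smad4*, the shared partner (chromosome 18, 73772080 to 73836851, minus strand), was at 85.4, 86.5 and 91.6 CPM in Ctrl and 82.4, 91.5 and 88.6 CPM in BMP7. The libraries of both groups intermixed, and the 95% interval of the log2 fold change was -0.14 to 0.13 (adjusted p = 0.985).

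The Smurf ligases differed from each other in estimate. *Smurf2* (chromosome 11, 106710892 to 106811541, minus strand) was at 134.6, 133.5 and 143.2 CPM in Ctrl and 157.5, 168.2 and 166.0 CPM in BMP7. All BMP7 libraries were above all Ctrl libraries, with an adjusted p of 0.00736, but its fold of 1.196 (log2 fold change 0.26, 95% interval 0.13 to 0.38) was just under 1.2 and it was not called. It was called without Ctrl replicate 3 and without BMP7 replicate 1 (both 0.29), and with the RLE size factors of DESeq2, in edgeR and in DESeq2 itself (0.26 in each). With BMP7 replicate 1 alone it had a log2 fold change of 0.20 and an adjusted p of 0.128. *Smurf1* (chromosome 5, 144813305 to 144902657, minus strand) was at 131.8, 142.4 and 127.3 CPM in Ctrl and 130.3, 131.2 and 136.6 CPM in BMP7, with overlapping groups and a log2 fold change of -0.01 (95% interval -0.14 to 0.12, adjusted p = 0.933). The ratio of *Smurf1* to *Smurf2* within a library was 0.952, 1.04 and 0.865 in Ctrl and 0.805, 0.759 and 0.80 in BMP7, lower in all 3 BMP7 libraries (exact permutation p = 0.1, adjusted 0.12). An overlapping gene shares 58 of the 6162 exon bases of *Smurf2*.

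Levels per exon length allowed the genes to be ordered, with the length summed over all annotated exons. Which transcripts were expressed was not tested, and the order depends on this length. By CPM alone, *Smurf2* (137), *Smurf1* (134) and *Smad5* (117) were above *Smad4* (87.8) in Ctrl. The shares of Smad classes given below rest on the same lengths. In Ctrl, *Smad4* was highest at 23.7 CPM per kb, with *Smurf2* (22.2) and *Smurf1* (21.1) next. Library ranges overlapped between *Smad4* and *Smurf2* and between *Smurf2* and *Smurf1*. *Smad5* (15.7), *Smad3* (11), *Smad1* (10.1) and *Smad2* (8.30) followed, of which the neighbours *Smad3* and *Smad1* overlapped. The inhibitory Smads stood well below at 1.85 for *Smad6* and 1.10 for *Smad7*, and *Smad9* was last at 0.0454. With BMP7, *Smurf2* (26.6) was first, above *Smad4* (23.6) and *Smurf1* (20.9), with no overlap between neighbours. *Smad6* reached 8.55 and *Smad7* 7.67 CPM per kb, overlapping *Smad2* at 8.19, and *Smad1* at 13.7 overlapped *Smad5* at 14.8. *Smad9* remained last at 0.699.

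The summed level of the 8 Smads was 71.7 ± 1.40 CPM per kb in Ctrl and 86.8 ± 2.96 with BMP7 (SD, n = 3). Inhibitory Smads made up 4.19%, 4.16% and 3.97% of it in the Ctrl libraries and 19.6%, 18.9% and 17.4% in BMP7 replicates 1, 3 and 4. The shares did not overlap between groups. BMP receptor-activated Smads went from 36.0% ± 0.465 to 33.6% ± 0.667, TGF-beta/activin Smads from 26.9% ± 0.353 to 20.6% ± 0.861, and *Smad4* from 33.0% ± 0.716 to 27.2% ± 1.35. Because shares sum to the whole, a larger share of one class lowers the others.

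**Figure D3:**
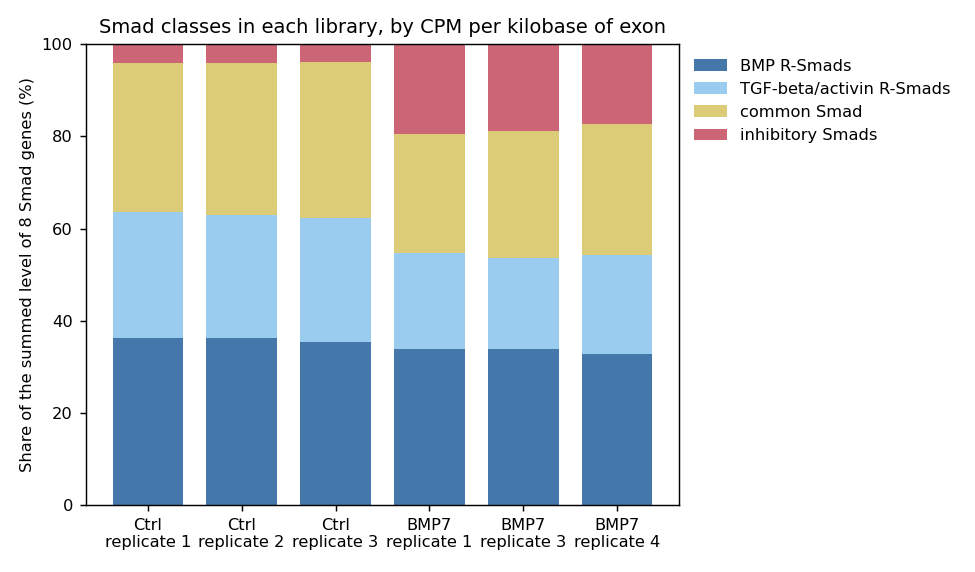
Share of each Smad class in the summed level of the 8 Smad genes (percent, from CPM per kb of exon), 1 bar per library. The inhibitory Smads took about 4% in each Ctrl library and 17.4% to 19.6% in each BMP7 library.

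The ratio of inhibitory to BMP receptor-activated Smads needs no scaling between libraries. It was 0.115, 0.115 and 0.112 in Ctrl and 0.578, 0.557 and 0.531 in BMP7. The groups were well separated, with a fold of 4.87. The ratio of TGF-beta/activin to BMP Smads was 0.751, 0.732 and 0.757 in Ctrl and 0.611, 0.578 and 0.651 in BMP7, lower in all 3 BMP7 libraries. The ratio of both Smurf genes to both inhibitory Smads fell from 14.2, 15 and 14.9 to 2.72, 2.82 and 3.31. Neither Smurf gene was called lower, so this fall restates the rise of *Smad6* and *Smad7* in the denominator. Each of these 3 ratios had an exact permutation p of 0.1, adjusted 0.12. The ratio of *Smad4* to all receptor-activated Smads was 0.507, 0.525 and 0.540 in Ctrl and 0.470, 0.510 and 0.524 in BMP7, with overlapping groups and an exact permutation p of 0.4.

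A wider list of genes that regulate Smads was described from the same fit. Counts called per class, given below, stand beside 11.4% called among all tested genes. Of 67 listed genes, 63 were tested, and 8 were higher, 1 lower and 54 not called, so 14.3% were called, close to the 11.4% of all tested genes. Their median log2 fold change was 0.03. The count of 1 lower gene depended on scaling, with 2 after upper-quartile scaling and 7 with none. At an unadjusted p under 0.05, 15 were higher and 8 lower in edgeR, beside 13.1% of all tested genes in each direction, and DESeq2 called the same numbers of genes, 8 and 1, past both thresholds.

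Co-repressors that hold Smads inactive at DNA gave 2 calls of 7 tested. *Skil*, which encodes SnoN, was at 101.1, 99.2 and 101.4 CPM in Ctrl and 174.0, 199.4 and 190.3 CPM in BMP7, and its relative *Ski* was at 190.0, 176.1 and 199.1 CPM in Ctrl and 241.1, 260.9 and 223.0 CPM in BMP7. Neither gene overlapped between groups, and the log2 fold changes were 0.90 (adjusted p = 3.87e-08) and 0.36 (adjusted p = 0.00189).

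Among 14 anchors, adaptors and receptor antagonists, 2 rose. *Pmepa1*, a membrane protein that binds receptor-activated Smads, was at 146.4, 175.4 and 173.1 CPM in Ctrl and 291.6, 334.5 and 256.1 CPM in BMP7 (log2 fold change 0.83, adjusted p = 6.00e-06). *Bambi*, a decoy receptor without a kinase, had low levels of 4.53, 3.29 and 4.79 CPM in Ctrl and 6.62, 6.31 and 5.78 CPM in BMP7 (log2 fold change 0.57, adjusted p = 0.0394), and among the 6 fits that left out a library it passed only without Ctrl replicate 3 (0.67). The other 5 gave 0.42 (adjusted p = 0.173, without Ctrl replicate 2) to 0.62 (without Ctrl replicate 1).

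Of 10 tested ubiquitin ligases other than the Smurfs, *Wwp2*, of the Nedd4 family, rose (log2 fold change 0.34, adjusted p = 0.0018). Of 13 tested co-activators and DNA-binding partners, *Zmiz1* (0.40, adjusted p = 0.00106), *Runx2* (0.34, adjusted p = 0.00377) and *Runx3* (0.30, adjusted p = 0.00723) rose and *Hivep1* fell by 0.34 (adjusted p = 0.00624). Without BMP7 replicate 3 both *Runx2* (0.26) and *Runx3* (0.25) fell under the fold of 1.2, and without Ctrl replicate 1 so did *Runx3* (0.25). Neither was called with BMP7 replicate 1 alone (0.26 and 0.21), nor was *Runx3* without scaling between libraries. *Zmiz1* and *Runx2* share 297 and 519 exon bases with antisense genes that counting without strand cannot tell apart, and *Wwp2* shares 70 exon bases with *Mir140*. None of 8 deubiquitinases, 6 phosphatases and 5 nuclear transport genes was called by edgeR with TMM scaling. The deubiquitinase *Cyld* (log2 fold change -0.25, adjusted p = 0.00962) and the importin *Ipo8* (-0.24, adjusted p = 0.0168) passed the adjusted p alone and, with the phosphatase *Ppm1h*, were called lower with no scaling (-0.33, -0.31 and -0.33 in that order). These 3 were named after their values were seen.

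**Figure D4:**
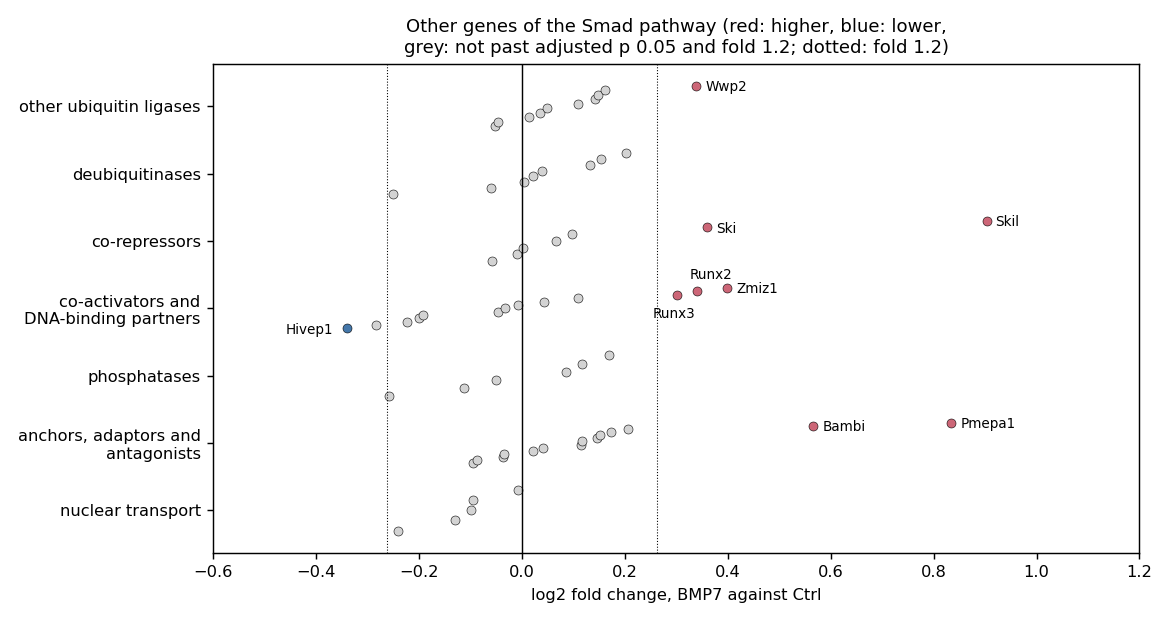
Log2 fold change of the 63 tested Smad regulators by class, 1 point per gene, with dotted lines at a fold of 1.2. *Skil* (0.90) and *Pmepa1* (0.83) lay apart from the other points, and *Hivep1* was the only gene called lower with TMM scaling, where 2 were called with upper-quartile scaling and 7 with none.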

How the data were processed

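Poly(A) RNA of 3 Ctrl and 3 BMP7 HC11 libraries was sequenced as read pairs. The authors aligned the reads with subjunc (Subread 2.0.3) to mm10, by their methods, and deposited fragment counts per gene name from featureCounts, whose header names an mm39 annotation. Exons were counted without strand, and the counts are not normalized. The deposited counts also give summed exon lengths. Groups came from the labels. Membership uses gene names only, but which genes and lists to describe was decided with earlier results of these data known.

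Counts were tested in R 4.3.3 with edgeR 4.0.16 (filter by expression, TMM normalization, quasi-likelihood test, Benjamini-Hochberg adjustment over 15733 genes), in place of DESeq2, which the authors used and which was run as an alternative (1.42.0). CPM used TMM library sizes and no prior count. Permutation tests used log2 CPM with a prior count of 2, or log2 ratios. Named genes are the 10 genes, called regulators, the 5 closest profiles of each inhibitory Smad, and genes with overlapping exons. In a search of GENCODE vM21 transcripts for stretches of 100 bases at 95% identity, *Smad5* matched 1 other gene, *Smad9* matched 6 and the other 8 genes matched none. Alternatives were other scalings, DESeq2, other filters and thresholds, each library left out, BMP7 replicate 1 alone and a replicate block.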

Additional observations from a re-analysis of the deposited data

How the results depend on the processing

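Over 16 alternatives, the log2 fold changes of *Smad6*, *Smad7* and *Smad1* kept their direction. They also kept their side of the threshold, except that *Smad1* was not called at a fold of 1.5. *Smad9* kept both in the 15 alternatives that tested it, and went untested where each library had to hold 10 counts. Under the main filter *Smad9* entered only through its BMP7 libraries, so its repeated calls are a description and not further evidence. With no filter on low counts its log2 fold change was 3.90. Leaving out 1 library gave ranges of 2.16 to 2.27 for *Smad6*, 2.74 to 2.88 for *Smad7*, 3.54 to 4.23 for *Smad9* and 0.37 to 0.53 for *Smad1*. Estimates near 0 changed sign: *Smad4* was 0.0016 with RLE size factors, 0.0017 with DESeq2 and -0.035 to 0.036 with 1 library left out (above 0 without Ctrl replicate 3 or BMP7 replicate 1), *Smurf1* was 0.014 with the replicate block and -0.046 to 0.035 with 1 library left out (above 0 without Ctrl replicate 2 or BMP7 replicate 1), and *Smad2* was -0.045 to 0.00042 with 1 library left out (above 0 without BMP7 replicate 3). The lowest adjusted p among them was 0.781, and the cause was not tested. Regulators called lower, 1 in the report, were 2 with upper-quartile scaling, 7 with no scaling beyond the total, 4 by adjusted p alone, 0 at a fold of 1.5, 4 with BMP7 replicate 1 alone, and 1 to 2 with 1 library left out. Those called higher, 8 in the report, were 2 at a fold of 1.5 (2 in all), 5 with BMP7 replicate 1 alone and 5 to 8 with 1 library left out. No scaling moved the median of all genes to -0.0808 and called 718 higher and 1474 lower, against 942 and 846. The inhibitory to BMP Smad ratio differed by 2.28 on the log2 scale and by 2.36 without division by length. The columns of both groups share only numbers 1 and 3, whose deviations correlated at -0.0142 and 0.116, so they are not taken to pair libraries. Of the Ctrl libraries, replicate 2 correlated best with BMP7 replicate 1, and replicate 3 with BMP7 replicate 3. With the replicate block, 4 of the 10 genes and 9 regulators (7 higher, 2 lower) were called. That fit left only 1 residual degree of freedom, so its calls say little about the spread between libraries. The low counts of *Smad9* in Ctrl limit the precision of its fold.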
